A study of Mus musculus with 6 samples.

Results

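The genes described here are the mouse Zfp genes, those whose symbol is Zfp followed only by digits, as far as DNA methylation was measured in them in intestinal organoids. A gene was counted as measured when its annotated span, extended by 1000 bases on each side, held at least 3 cytosine positions with a methylation level in all 6 libraries. Of 372 such genes annotated, 166 lie in the stretch of the deposited table that could be used, and 67 of these were measured. The other 99 had too few positions: 73 had none in the table, 14 had listed positions but none with a level in every library, and 12 had only 1 or 2. The remaining 206 of the 372 lie outside that stretch and were not analysed here. The 67 measured genes, all annotated as protein coding, lie on 13 chromosomes and hold 2231 positions, with a median of 25 per gene and a maximum of 121.

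The organoids carried the Apc Min genotype, in which a nonsense mutation shortens Apc, a brake on Wnt signalling, and were grown from primary cells in organoid medium low in glutamine. Both groups share this genotype and medium. The 3 control libraries and the 3 libraries treated with DM-aKG are biological replicates per the design text, and the comparison asks how methylation differs with the treatment. DM-aKG is a cell-permeable ester of α-ketoglutarate, which TET enzymes use when they oxidise 5-methylcytosine. The sources used here give no dose, duration of treatment or age of the mice, nor do they say whether the replicates came from separate animals, so p-values measure only the spread between these libraries.

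Most Zfp genes encode C2H2 zinc finger proteins, in which short loops, each folded around a zinc ion held by cysteines and histidines, read DNA bases in a row. They form one of the largest families of transcription factors in mammals. Many carry a KRAB domain that recruits the co-repressor TRIM28 and the histone methyltransferase SETDB1, and these KRAB zinc finger proteins are known for silencing transposable elements and for holding methylation at imprinted regions. Many of the genes arose by local duplication and stand in clusters of near-identical copies, while others, often older and without a KRAB domain, stand alone. Bodies of transcribed genes are usually methylated, whereas CpG-rich promoters are usually not.

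The promoters are shown first because they set what the measured levels can and cannot describe. Windows from 250 bases before to 50 bases after a start site (RefSeq, GRCm38.p6) were found for 46 of the 67 genes, 54 windows in all, with a median of 15 CpG dinucleotides each. Of these windows, 64.8% held at least 10 CpGs, against 58.4% of the windows of all genes tested. Yet only 2 of the 54 (3.70%) held any position of the table, against 7.60% for all genes tested, and only 1 (1.85%) held a position with a level in all 6 libraries, against 5.12%. The window with levels belongs to Zfp345. Below it stand those of Zfp365, Zfp641 and Zfp451, the 3 genes with the largest higher values with DM-aKG, none of which holds a position of the table. All 4 are printed 5′ to 3′ on the minus strand with each CpG in capitals. They span chr2:150485014-150485313 for Zfp345, chr10:67912613-67912912 for Zfp365, chr15:98296112-98296411 for Zfp641 and chr1:33814546-33814845 for Zfp451.
Zfp345: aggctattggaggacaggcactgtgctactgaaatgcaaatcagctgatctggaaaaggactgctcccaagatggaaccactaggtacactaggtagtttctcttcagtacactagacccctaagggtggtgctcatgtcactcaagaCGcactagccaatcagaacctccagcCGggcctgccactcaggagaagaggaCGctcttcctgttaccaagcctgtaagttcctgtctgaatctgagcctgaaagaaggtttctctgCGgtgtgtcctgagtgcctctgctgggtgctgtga
Zfp365: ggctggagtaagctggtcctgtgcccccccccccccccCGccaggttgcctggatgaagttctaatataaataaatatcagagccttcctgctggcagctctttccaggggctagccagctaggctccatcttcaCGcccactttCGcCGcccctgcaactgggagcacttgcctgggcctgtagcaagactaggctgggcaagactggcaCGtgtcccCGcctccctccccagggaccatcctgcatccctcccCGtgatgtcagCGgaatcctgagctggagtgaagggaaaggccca
Zfp641: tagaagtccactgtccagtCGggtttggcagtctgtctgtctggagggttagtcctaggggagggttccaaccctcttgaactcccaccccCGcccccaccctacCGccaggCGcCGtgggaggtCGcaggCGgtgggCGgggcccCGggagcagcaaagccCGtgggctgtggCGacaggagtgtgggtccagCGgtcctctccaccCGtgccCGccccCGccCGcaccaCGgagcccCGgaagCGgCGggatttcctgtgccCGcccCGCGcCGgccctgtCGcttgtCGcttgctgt
Zfp451: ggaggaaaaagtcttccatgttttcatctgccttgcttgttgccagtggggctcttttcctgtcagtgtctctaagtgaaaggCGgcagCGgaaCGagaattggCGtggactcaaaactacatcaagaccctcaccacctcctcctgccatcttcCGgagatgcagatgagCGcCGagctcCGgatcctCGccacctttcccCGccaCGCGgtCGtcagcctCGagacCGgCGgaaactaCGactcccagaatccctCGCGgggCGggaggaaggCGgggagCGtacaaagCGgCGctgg

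The Zfp345 window holds 4 CpGs, that of Zfp365 holds 8, that of Zfp451 holds 24 and that of Zfp641 holds 26. In Zfp345 both cytosines of 2 CpGs had levels, at bases 201 and 202 and at bases 266 and 267 of the printed sequence, which lie 50 and 49 bases before and 15 and 16 bases after the start site. Their levels were intermediate. At base 201 the controls measured 52, 73 and 57% and the DM-aKG libraries 73, 64 and 69%. At base 266 the controls measured 74, 65 and 80% and the DM-aKG libraries 68, 77 and 58%. The groups overlapped at all 4 cytosines, with means of 60.7, 70.0, 73.0 and 59.7% in the controls and 68.7, 71.3, 67.7 and 57.7% with DM-aKG, in the order of the sequence. The other window with a listed position was that of Zfp57, where the position at chr17:37003524 was listed at 100% in DM-aKG replicates 1 and 2 and at 0 in the other 4 libraries.

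A 0 in this table has no fixed meaning. Values from 1 to 39 do not occur, so a 0 can be a call below 40% or a missing call, and such values were left out. What is given here is therefore the methylation of positions that were at or above 40% in every library. The table has 813850 rows, and in the 390208 that were used (47.9%) the libraries correlated at 0.573 to 0.743 across positions. From there on, control replicates 1 and 2 no longer correlate with the other 4 libraries. Values and coordinates thus do not line up in all libraries there, and those rows were left out. The rows used cover chromosomes 1, 2, 10 to 19 and chromosome 3 up to base 87947903. Read depth is unknown, so no interval from read counts is given. The labelled tissue could not be checked against expression, since marker genes give only methylation levels here: 4 of 9 epithelial, 4 of 8 fibroblast, 2 of 6 immune and 2 of 4 endothelial markers were measured. Their median differences with DM-aKG were -1.30, 3.5, 2.35 and 1.23 points, none of their genes passed the test, and the part of other cells in the Zfp values was not tested.

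In these libraries the mean level of the measured Zfp genes stood above that of all genes. It was 89.6, 91.1 and 90.9% in the 3 controls and 91.0, 91.3 and 91.8% in the 3 DM-aKG libraries. Over all 9195 genes with at least 3 positions, the control mean was 87.0% ± 0.624 and the DM-aKG mean 88.0% ± 0.267 (SD, n = 3 each). In every library the Zfp mean stood above that of all genes, by 3.18 to 3.77 points. A level of at least 90% was found in 44 of the 67 Zfp genes (65.7%), against 43.9% of all genes, and a level under 80% in 2 (2.99%), against 14.2%. The same shift was seen in single positions. Of the 2231 Zfp positions, 13% had a mean under 80%, against 20.9% of all positions, and 136 (6.10%) stood at 100% in all 6 libraries, against 3.33%. The median number of positions was 25 in Zfp genes and 15 in all genes.

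With DM-aKG the levels of the Zfp genes were slightly higher on average, by about as much as those of all genes. Over the 67 genes the control mean was 90.5% ± 0.831 and the DM-aKG mean 91.4% ± 0.418 (SD, n = 3 each). They differed by 0.822 points, and the groups overlapped. The difference over all genes was 0.977 points. The median difference was 0.741 points for Zfp genes and 0.733 points for all genes. A higher mean with DM-aKG was found in 45 Zfp genes (67.2%, background 66.3%), a lower one in 20 (background 33%), and Zfp81 and Zfp334 were equal. These shares lie near the background. Control replicate 1 was the lowest library, and without it the mean difference of the Zfp genes was 0.346 points. The direction turned, to -2.68 points over 82 Zfp genes, when a 0 was counted as a level of 0, which lets more genes in. It also turned, to -0.229 points, when library means were equalised. Equalising takes the difference over all positions, 1.05 points, from every gene.

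No Zfp gene passed the test. With limma on the log2 odds of the gene levels and Benjamini-Hochberg adjustment over all 9195 genes, 0 of the 67 Zfp genes had an adjusted p under 0.05 (background 0%), and their smallest adjusted p was 0.764. On untransformed levels limma called 1 of all genes (background 0.0109%) and no Zfp gene. At an unadjusted p under 0.05, 4 Zfp genes were higher with DM-aKG (background 4.95%) and 1 was lower (background 1.29%). Groups that did not overlap were found in 8 Zfp genes with higher values (11.9%, background 11.3%) and in 1 with lower values (1.49%, background 2.53%). With library means equalised these counts were 1 higher (background 5.56%) and 7 lower (background 8.2%). With positions 1 base apart averaged first, 60 Zfp genes were left, 4 higher (background 11.4%) and 0 lower (background 2.58%). Leaving out 1 library gave 11 to 16 higher and 1 to 5 lower. Groups of 3 and 2 libraries separate more easily in any gene, so these counts are not comparable with 8 and 1. Their background is not given here. In 52 of the 67 genes the means differed by less than 2 points. The 95% interval of a gene's difference reached 2.99 points to either side at the median, without adjustment for the number of genes.

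**Figure D1:**
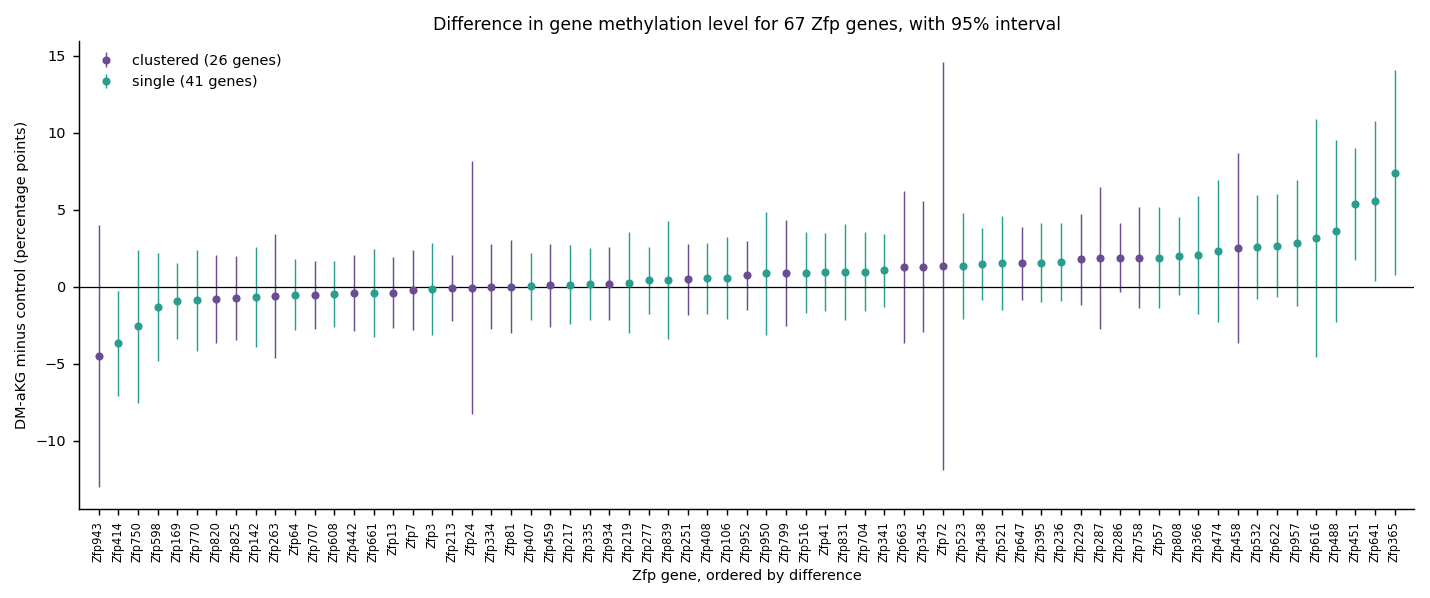
The vertical axis gives DM-aKG minus control in percentage points for each of the 67 Zfp genes, ordered along the horizontal axis, with bars for the 95% interval and colours for clustered and single genes. The points run from -4.50 points in Zfp943 to 7.40 points in Zfp365, and all but 4 intervals include 0.

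The largest difference among the 67 genes was that of Zfp365, whose product binds the neuronal scaffold protein Disc1. Its span lies on chromosome 10 from base 67886105 to base 67912662 and held 45 positions, all from 2.98 to 24.0 kb past the 5′ end. They lie only from base 67888682 to base 67888845 and from base 67909351 to base 67909680, many as neighbouring cytosines 1 base apart. The controls measured 71.7, 80.4 and 75.6% and the DM-aKG libraries 81.6, 80.9 and 87.4%, so that the lowest treated library stood just above the highest control. The means were 75.9% ± 4.37 and 83.3% ± 3.59 (SD, n = 3 each), a difference of 7.40 points (95% interval 0.759 to 14, limma adjusted p = 0.764). Means were higher at 41 of these 45 positions, which lie too close together to count as separate cases. Groups did not overlap at 7 positions with higher values (background 4.63%) and at none with lower values (background 2.5%). The 24 positions with a mean under 80% measured 68.0% ± 6.07 and 77.6% ± 5.62, and the 21 above it 85% ± 2.90 and 89.8% ± 1.93 (SD, n = 3 each). Leaving out 1 library at a time gave differences of 5.31 to 9.66 points, and counting a 0 as a level of 0 over 60 listed positions gave 1.93 points. Zfp365 was also the second lowest of all measured Zfp genes by its mean level, 79.6%.

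Zfp451, a SUMO ligase, had the smallest unadjusted p of all Zfp genes. Its span lies on chromosome 1 from base 33761541 to base 33815602 and held 9 positions. The controls measured 90.9, 85.6 and 88.0% and the DM-aKG libraries 94.0, 93.4 and 93.1%, with no overlap. The difference was 5.37 points (95% interval 1.71 to 9.03, limma adjusted p = 0.764), and 7 of its 9 positions were higher. The table lists 15 positions in it, of which these 9 had a level in every library, and counting a 0 as a level of 0 over all 15 gave -6.89 points.

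Zfp641, on chromosome 15 from base 98285585 to base 98296515, had 18 positions, 13 of which also lie in the span of Gm33967. The controls measured 78.2, 83.5 and 82.8% and the DM-aKG libraries 83.7, 87.5 and 89.9%. The treated values began just above the highest control. The difference was 5.54 points (95% interval 0.343 to 10.7, limma adjusted p = 0.764). Over the 5 positions that lie in no other gene it was 0.80 points, so the larger part of it came from positions that cannot be assigned to Zfp641 alone. Counting a 0 as a level of 0 over 22 listed positions gave 9.20 points.

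Smaller gaps separated the groups in the other 5 genes with higher values. Zfp286 measured 96.0, 95.7 and 96.3% in the controls and 98.7, 97.7 and 97.3% with DM-aKG over 3 positions (limma adjusted p = 0.764). Zfp808, also with 3 positions, had means of 92.6% ± 0.192 and 94.6% ± 1.35 (SD, n = 3 each). These genes were so tight among the controls that a gap of 1.89 or 2.0 points sufficed for the groups not to overlap. Zfp236 with 21 positions differed by 1.59 points, Zfp647 with 32 positions by 1.53 points and Zfp438 with 32 positions by 1.47 points. For Zfp808, Zfp236 and Zfp438 the sign turned when a 0 was counted as a level of 0, with -6.25, -8.05 and -2.27 points, and for Zfp647 it gave 9.37 points.

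Zfp414 was the only measured Zfp gene whose DM-aKG libraries all stood below the controls. Its span, 33629092 to 33631716 on chromosome 17, held 3 positions. The controls measured 92.7, 91.3 and 92.3% and the DM-aKG libraries 86.0, 88.7 and 90.7%, a difference of -3.67 points (95% interval -7.08 to -0.253, limma adjusted p = 0.764). Most of it came from 1 cytosine at base 33630357, with 86, 94 and 90% in the controls and 80, 79 and 84% with DM-aKG. The largest negative difference belonged to Zfp943, with -4.50 points over 4 positions that lie within 11 bases of each other. There the controls measured 84.5, 80 and 84.8% and the DM-aKG libraries 71.0, 80.2 and 84.5%, so that DM-aKG replicate 1 alone stood apart; without it the difference was -0.708 points. Counting a 0 as a level of 0 gave -17.5 points in Zfp414 over 4 listed positions and turned Zfp943 to 4.33 points over 6.

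**Figure D2:**
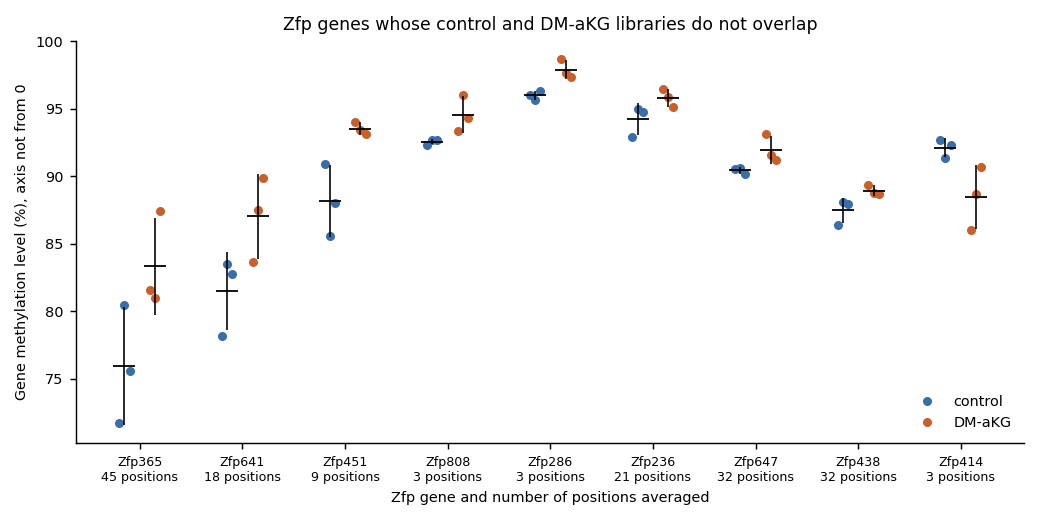
Each point is 1 library's methylation level in percent (vertical axis, not from 0) for the 9 Zfp genes whose groups do not overlap, with horizontal lines for the mean and bars for the SD of 3 libraries. In Zfp365, Zfp641 and Zfp451 the groups differ by over 5 points, and Zfp414 is the only gene of the 9 with lower DM-aKG libraries.

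At the threshold of 3 positions stood Zfp286, Zfp808, Zfp229, Zfp799, Zfp81 and Zfp414. Just outside it were 4 genes with 2 positions: Zfp454 (63.8% in the controls, 64.7% with DM-aKG), Zfp131 (94.5 and 100%), Zfp870 (62.0 and 49.5%) and Zfp91 (93.8 and 88.5%). Zfp454 and Zfp870 thus stood below every measured Zfp gene.

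The least methylated of the 67 genes was Zfp345, at 77.3% ± 3.17 in the controls and 78.6% ± 1.06 with DM-aKG (SD, n = 3 each) over 12 positions. Of these positions 9 lie in the flanks, and 7 are shared with Gm14127. Over the 3 positions in the span the difference was -2.44 points, against 1.31 over all 12. Zfp345 is also the gene whose promoter window, printed above, had levels. Zfp365 followed, then Zfp488, which is known from oligodendrocyte differentiation, with 75.6, 79.0 and 81.5% in the controls and 79.5, 80.5 and 86.9% with DM-aKG. In Zfp488, 19 of 25 positions were higher, and the groups overlapped (difference 3.61 points, 95% interval -2.31 to 9.54). Without DM-aKG replicate 3 the difference was 1.33 points, and with a 0 as a level of 0 it was -0.429 points. Zfp943 at 80.8% and Zfp663 at 81.1% came next and did not differ from Zfp488 beyond the spread between libraries. At the other end were Zfp81 at 98.2%, Zfp934 at 98.0% and Zfp799 at 97.8%, with 3, 5 and 3 positions. Their libraries lay between 96.0 and 100%, and the 3 genes could not be ordered among themselves.

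The 3 genes with the most positions were Zfp64, Zfp532 and Zfp407. Zfp64, with 121 positions, measured 95.8% ± 0.720 and 95.2% ± 0.566 (SD, n = 3 each), and Zfp407, with 101 positions, measured 93.4% ± 0.538 and 93.4% ± 0.359. Their intervals of the difference ran from -2.82 to 1.77 and from -2.13 to 2.22 points. Zfp532, with 110 positions, stood at 86.7, 87.7 and 89.5% in the controls and at 89.3, 89.6 and 92.8% with DM-aKG. The groups overlapped and differed by 2.59 points (95% interval -0.80 to 5.98). With a 0 as a level of 0 that difference was 0.809 points.

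Several members are known for roles outside the silencing of repeats. Zfp57, which holds methylation at imprinted regions, measured 88.5, 86.8 and 86.8% in the controls and 90.9, 90 and 86.9% with DM-aKG over 15 positions, 2 of them shared with Mog. All 15 lie within 160 bases. The groups overlapped through DM-aKG replicate 3, which lay between the controls. Zfp217, a repressor linked to tumours, measured 88.2% ± 0.714 and 88.4% ± 1.16 over 57 positions. Zfp335, needed in neural progenitors and T cells, measured 88.8% ± 0.624 and 89.0% ± 0.829 over 62 positions, of which 47 are shared with Gm46775, Pcif1 or Zfp335os (SD, n = 3 each). Zfp521, a regulator of progenitor cells, differed by 1.52 points over 80 positions, with control replicate 1 at 83.8% and the other 5 libraries between 86.8 and 88.3%. Zfp598, a ubiquitin ligase that senses collided ribosomes, measured 91.3% ± 2.35 and 90% ± 0.954 over 32 positions, and Zfp366, known as DC-SCRIPT, 82.0% ± 1.96 and 84.1% ± 2.15 over 37. Zfp516, linked to brown fat, measured 93.1% ± 0.579 and 94.0% ± 1.37 over 98 positions (SD, n = 3 each). None of these genes passed the test, and the last 3 were chosen after their values were seen.

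Genes in clusters were compared with genes that stand alone, by position only. A gene was called clustered when another Zfp gene lies within 100 kb of it on the same chromosome, whether or not that neighbour was measured. Of 84 clustered genes 26 were measured (31.0%), with a median of 10.5 positions and a median span of 18.7 kb. Of 82 single genes 41 were measured (50%), with medians of 32 positions and 32.7 kb. In each library the mean of the clustered genes was above that of the single genes, by 1.79, 1.53 and 1.38 points in the controls and by 0.297, 0.774 and 1.39 points with DM-aKG. This gap did not hold across settings: over genes with at least 10 positions it was 0.011 points, and over genes with at least 1 position it was -1.75 points.

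The difference between the treatment groups was 1.11 points in single genes and 0.363 points in clustered genes. Over all genes it was 0.977 points, with groups that did not overlap either. The mean of the single genes was 88.9, 90.5 and 90.4% in the controls and 90.9, 91.0 and 91.3% with DM-aKG, with groups that did not overlap. The clustered genes measured 91.5% ± 0.720 and 91.9% ± 0.752 (SD, n = 3 each), with groups that overlapped. Among the 41 single genes 31 were higher (75.6%, background 66.3%) and 10 lower. Among the 26 clustered genes 14 were higher (53.8%) and 10 lower. The gap between clustered and single genes was 1.57 ± 0.208 points in the controls and 0.819 ± 0.545 points with DM-aKG (SD, n = 3 each), a change of -0.749 points in which DM-aKG replicate 3 lay inside the range of the controls. Over genes with at least 10 positions the change was -0.358 points, and without DM-aKG replicate 1 it was -0.488 points. No p is given for these means over members, and the change was not tested.

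**Figure D3:**
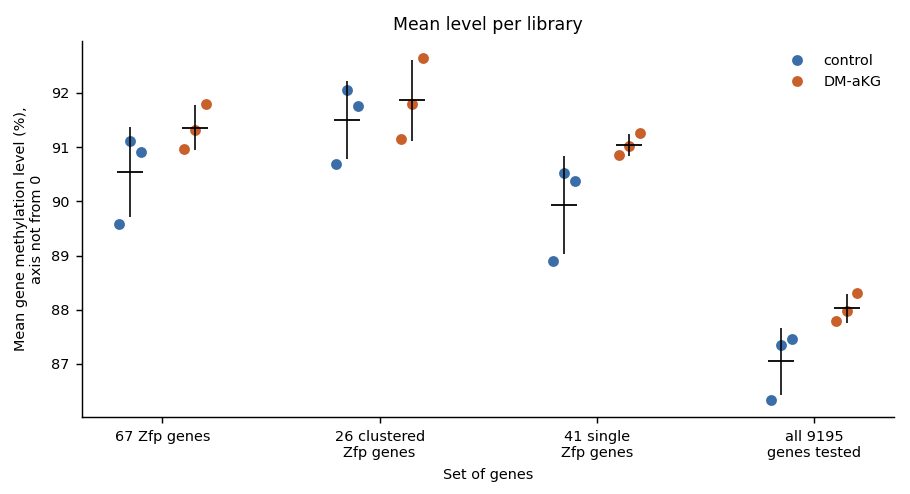
Each point is the mean methylation level in percent (vertical axis, not from 0) of 1 library over the set of genes named on the horizontal axis, with lines for the mean and bars for the SD of 3 libraries. Control replicate 1 is the lowest point of each set, and the groups overlap in the 67 Zfp genes and in the 26 clustered genes but not in the 41 single genes or in all 9195 genes.

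Of the 23 clusters in the rows used, 15 had a measured gene. The largest one measured in full stands on chromosome 15 from base 76852131 to base 76925693 and holds Zfp251, Zfp7 and Zfp647, with 149 positions together. Levels in it were alike, from 91.1 to 93.7%, and the differences ran from -0.216 points in Zfp7 to 1.53 points in Zfp647. The largest clusters were hardly seen. Of 14 genes on chromosome 13 from base 67038594 to base 67553152, only Zfp458 and Zfp459 were measured, at 91.3 and 94.3%. Of 13 genes on chromosome 17 from base 21383707 to base 21994366, 3 were measured, and they spread from Zfp943 at 80.8% to Zfp820 at 93% and Zfp229 at 93.2%. All 7 positions of Zfp820 and all 3 of Zfp229 lie in the flanks, so these levels are not from inside the genes. Of the 8 genes from base 32765496 to base 33110707 on the same chromosome, Zfp799 and Zfp952 were measured, at 97.8 and 97.5%. In clusters of near-identical copies, reads may have been placed on the wrong copy or left out, and the sources used here do not say how such reads were treated.

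Differences were larger at lower mean levels, in Zfp genes and in all genes. In the 9 Zfp genes with a mean level under 85% the median difference was 2.06 points and 7 were higher, against 1.85 points and 72.9% of all genes at that level. In the 43 genes from 85 to 95% it was 0.857 points, against 0.576. In the 15 genes at 95% or more it was 0.200 points, against 0.125. Positions showed the same order. The 290 Zfp positions with a mean under 80% had a control mean of 68.1% ± 1.49 and a DM-aKG mean of 70.9% ± 1.53, which lie 2.80 points apart (SD, n = 3 each). The 1941 at 80% or more had means of 94.1% ± 0.561 and 94.6% ± 0.147, which lie 0.466 points apart. All positions gave 2.38 and 0.698 points. Split by number of positions, the 16 Zfp genes with 10 to 29 had the largest mean difference, 1.65 points. In this bin 14 Zfp genes were higher (87.5%, against 66.6% of all genes in it). The difference was 0.474 points in the 20 genes with 3 to 9 positions and 0.616 points in the 31 genes with 30 or more. Over all genes these bins gave 0.951, 1.02 and 0.952 points.

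**Figure D4:**
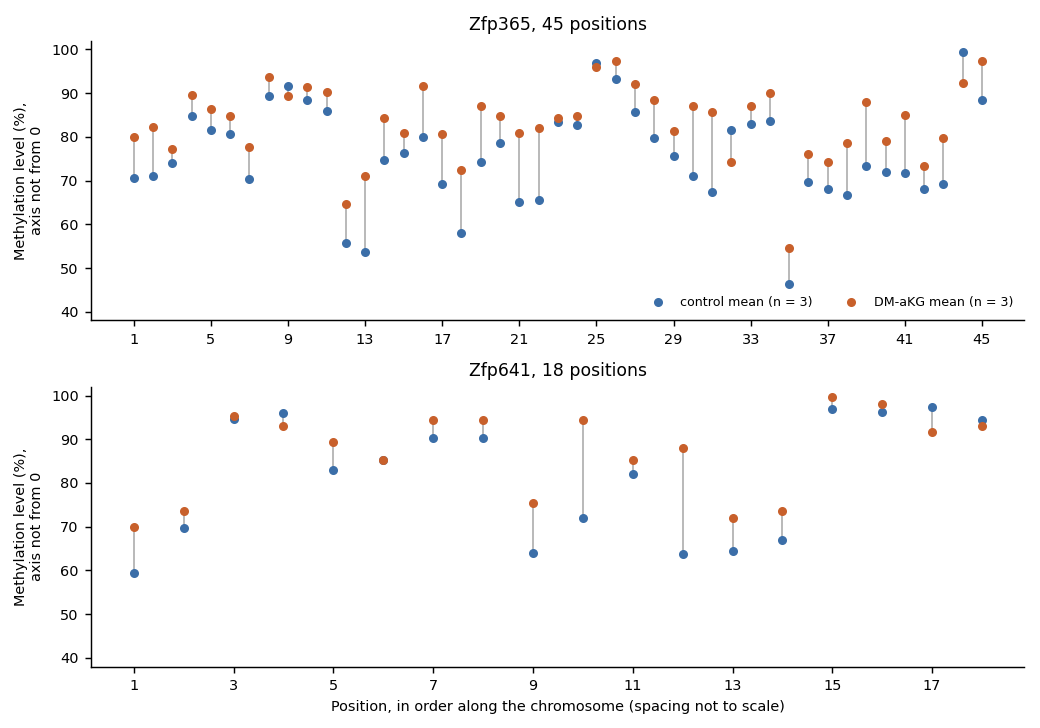
Each pair of points is 1 cytosine position, with its control mean and its DM-aKG mean (n = 3 libraries each) in percent on the vertical axis (not from 0), in order along the chromosome. In Zfp365 the DM-aKG mean is higher at 41 of 45 positions, and in Zfp641 at 14 of 18, with the wider gaps at positions of lower level.

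At single positions the test was limma on untransformed levels over all 272327 positions with a level in every library. None of the 2231 Zfp positions passed (background 0%), and their smallest adjusted p was 0.578. Unadjusted p-values under 0.05 were found at 64 positions with higher values (2.87%, background 3.54%) and at 49 with lower values (2.20%, background 1.89%). Groups did not overlap at 83 positions with higher values (3.72%, background 4.63%) and at 65 with lower values (2.91%, background 2.5%). On log2 odds limma called 6 Zfp positions (background 0.149%), each of them at 100% in all 3 libraries of one group.

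In 3 of these 6 the DM-aKG libraries were at 100%. The controls measured 93, 94 and 94% at chr11:70772228 in Zfp3, 83, 81 and 89% at chr15:76890673 in Zfp7, and 94, 94 and 95% at chr18:82957075 in Zfp516. In the other 3 the controls were at 100%. There the DM-aKG libraries measured 86, 80 and 83% at chr2:170115010 in Zfp217, 95, 96 and 95% at chr18:82661798 in Zfp236, and 50, 50 and 67% at chr2:165373866 beside Zfp334. In each of the 6, one group thus had no spread at all. The position beside Zfp334 had the widest gap of those named, 44.3 points (limma adjusted p = 0.593 on untransformed levels). It was also the 1 Zfp position called on untransformed levels when DM-aKG replicate 3 was left out (limma adjusted p = 0.0478). Zfp334 as a whole had equal group means, 92.2% ± 1.24 and 92.2% ± 1.13 over 90 positions (SD, n = 3 each). At chr15:75976547, beside Zfp707, the controls measured 100, 92 and 91% and the DM-aKG libraries 74, 73 and 70%, without overlap (limma adjusted p = 0.608).

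Past the 5′ end, levels of the Zfp genes were higher in each farther stretch, although different genes make up the stretches. These stretches run on into the flank past the other end of the span, so not all their positions lie inside a Zfp gene. All 15 positions of Zfp758 and all 7 of Zfp820 lie in that flank, beyond 20 kb. The strand was found for 46 of the 67 genes. Distances run from the 5′ end of the annotated span, which need not be the start site of a printed window. In Zfp451 the positions counted in the first 1 kb, from base 33815281 to base 33815436, lie before its printed window. The first 1 kb held only 12 positions of 3 genes, with 76.2% ± 2.52 in the controls and 77.8% ± 0.752 with DM-aKG, against 84.0 and 85% for all genes. These 3 genes differed: 5 positions of Zfp451 measured 85.8% ± 2.65 and 90.9% ± 1.47, 4 of Zfp335 measured 73.3% ± 6.29 and 73.3% ± 5.92, and 3 of Zfp345 measured 64.2% ± 7.95 and 61.8% ± 7.0 (SD, n = 3 each). Without Zfp345 the first 1 kb stood at 80.2% in the controls and 83.1% with DM-aKG. From 1 to 5 kb, 177 positions measured 87.9% ± 0.618 and 89.5% ± 0.433. Among these is a run of Zfp365, the gene with the largest difference, from 2982 to 3311 bases past the 5′ end. Most positions of this run were higher with DM-aKG, and its share in the gap was not computed. From 5 to 20 kb, 564 positions measured 90.6% ± 0.745 and 91.2% ± 0.510, and beyond 20 kb, 447 positions measured 93.2% ± 0.640 and 93.6% ± 0.191 (SD, n = 3 each). All genes stayed between 87.2 and 89.3% over these 3 stretches. Within 1 kb before the 5′ end, 21 positions of 4 Zfp genes measured 88.7% ± 0.297 and 88.9% ± 0.165 (SD, n = 3 each), against 84.4 and 85.1% for all genes. Of these positions 11 belong to Zfp169, which measured 96.58 and 96.48%. Without Zfp169 the stretch stood at 79.97% in the controls and 80.57% with DM-aKG, below all genes. Leaving out Zfp229, Zfp335 or Zfp345 instead left it above them, at 88.06 to 91.88% and 88.04 to 92.73%. With the span cut into 3 parts of equal length, the first part of the Zfp genes measured 87.3% ± 0.350 and 88.9% ± 0.142, a difference of 1.60 points without overlap. The middle part measured 93.4% ± 0.0683 and 93.2% ± 0.528, and the last part 91.7% ± 1.13 and 92.5% ± 0.136 (SD, n = 3 each), so by this split the middle part stood highest. Over all genes the first, middle and last parts differed by 1.02, 1.01 and 0.896 points, each without overlap. The run of Zfp365 named above lies in the first part of its span. Genes with many positions weigh most in the means of all these stretches and parts.

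**Figure D5:**
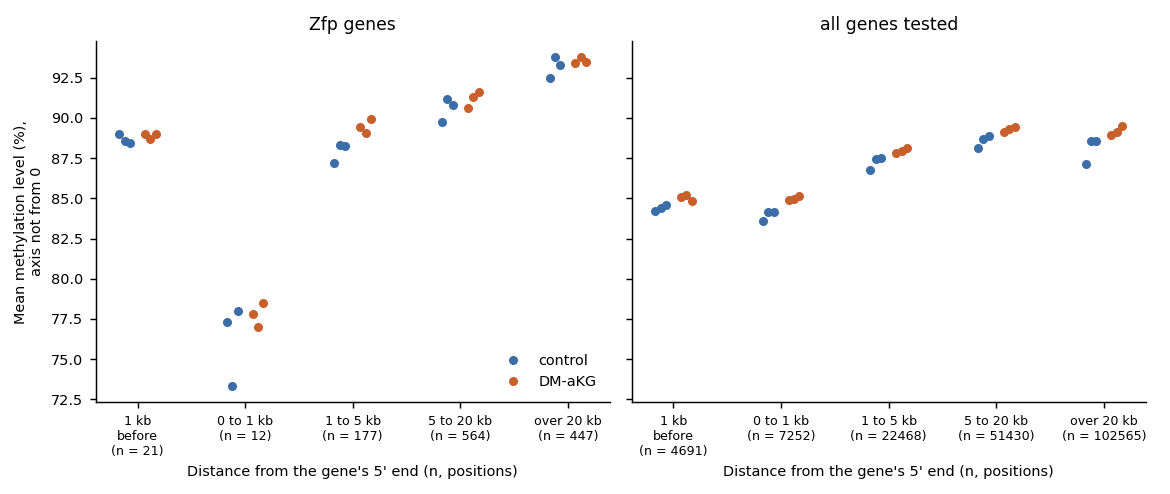
Each point is 1 library's mean methylation level in percent (vertical axis, not from 0) over the positions at a given distance from the 5′ end (horizontal axis, with the number of positions), for Zfp genes on the left and all genes tested on the right. The Zfp genes run from 76.2% in the controls in the first 1 kb to 93.2% beyond 20 kb, and all genes from 84.0 to 88.1%.

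Which Zfp positions had a value at all also varied between libraries. Of the 2864 listed Zfp positions, 88.6, 93.1 and 92.5% had a value in the controls and 88.9, 89.0 and 89.2% with DM-aKG. Across all rows used the shares were 83.7, 87.8 and 88.6% in the controls and 85.2, 86.0 and 85.9% with DM-aKG. In both sets control replicate 1 was lowest and control replicates 2 and 3 were highest. In 38 Zfp genes the share with a value was lower with DM-aKG, in 15 it was higher and in 14 it was equal. The same count over all genes is not given here, so these numbers have no background. Values in all 3 controls and in no DM-aKG library were found at 19 Zfp positions (0.663%, against 0.459% of all rows used), and the reverse at 8 (0.279%, against 0.314%). Some of these stood in runs. In Zfp523, 5 such positions lie within 36 bases on chromosome 17, from base 28202136 to base 28202172, at 100% in the controls except for a value of 50% in control replicate 1 at the last of them. In Zfp661, 5 lie within 88 bases on chromosome 2, from base 127582256 to base 127582344, with control values from 64 to 100%. In Zfp64, 3 positions within 61 bases were at 100% in every DM-aKG library and had no value in the controls. These runs were picked after their values were seen. Whether these runs were unmethylated or not covered in the other group cannot be told apart, since both are listed as 0.

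The genes that work with KRAB zinc finger proteins were measured in part. Of 19 genes listed as co-repressor partners 8 had a value. Zfp57 is among the 8, although it is itself a measured Zfp gene and not a co-repressor. With DM-aKG 7 of the 8 were higher (background 66.3%), Zfp57 included, and 1 lower (background 33%), with a median difference of 1.66 points. No gene of this list passed the test. The smallest p belonged to Hdac2, a histone deacetylase, with 95.1% ± 2.46 in the controls and 85.6% ± 6.24 with DM-aKG over 3 positions, followed by Morc3, a chromatin ATPase, with 89.6% ± 3.29 and 95% ± 3.01 over 7 (SD, n = 3 each). Neither pair of groups was free of overlap. Of 18 genes for the upkeep of DNA methylation 11 had a value, 7 higher and 4 lower (backgrounds as above). Their median difference was 0.450 points, with none passing. Dnmt3b, a de novo methyltransferase, measured 95.3% ± 1.24 and 93.7% ± 1.29, and Tet1 88.4% ± 0.786 and 90.3% ± 0.948 (SD, n = 3 each). Other zinc finger families differed little between the groups on average. The 18 measured Zbtb genes stood at 92.6% ± 0.336 and 93.2% ± 0.465, the 5 Zscan and Zkscan genes at 91.8% ± 1.84 and 91.2% ± 0.689, and the 14 Zfp genes with letters after the digits at 88.7% ± 0.413 and 89.4% ± 0.550 (SD, n = 3 each).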

How the data were processed

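Reduced representation bisulfite sequencing, in which fragments cut at CpG-containing sites are read after bisulfite conversion, was done on 3 control and 3 DM-aKG libraries. The authors deposited 1 table of percent methylation in whole numbers, with cytosine positions in rows and libraries in columns. Per the submitters' processing notes the build was mm10 and the tools were CASAVA 1.8 and Novoalign 3.08.02; the sources used here give no methylation caller, coverage or filters. Depth is unknown, so the precision rests on the spread of 3 libraries per group. The table's start column was taken to count from 1: of 4465 positions in RefSeq promoter windows, 99.9% lie on a CpG when counted from 1 and 55.5% when counted from 0.

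The rows after 390208 were left out because control replicates 1 and 2 no longer correlate with the other 4 libraries there. A position was used when all 6 libraries had a value above 0. A gene's level is the mean over its span (GRCm38.p6) with 1000 bases on each side, at least 3 positions, unweighted, and overlapping genes share positions. The gene fit used log2 odds (offset 0.01) and the position fit untransformed levels, both in limma 3.58.1 (R 4.3.3) with no replicate block and Benjamini-Hochberg adjustment over all 9195 genes or 272327 positions and a threshold of 0.05. Intervals are 95% intervals from limma on untransformed levels. The deviations of same-numbered libraries from their group means correlated at -0.0276 to 0.0652. Those of differently numbered libraries correlated at -0.0872 to 0.0902. With 3 libraries per group this cannot decide whether the numbers mark pairs, so pairing is unknown.

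Both fits were tested on simulated data. With 200 genes lowered by 20 points limma called 163 of them and 8 others, and at 10 points 101 and 3. With 200 positions lowered by 50 points it called 137 and 21 others, and at 30 points 49 and 7. Genes named are the 8 per direction with the smallest p among those whose groups do not overlap, the 5 lowest and 3 highest levels, the members of the cluster with the most measured genes, the 3 with the most positions, and Zfp57, Zfp217, Zfp335, Zfp451 and Zfp521; of positions, the 3 per direction with the smallest p. Of the 8 genes fixed by name, Zfp281, Zfp148 and Zfp318 had no measured value. The members, gene lists and rules were chosen with earlier results of these data known. Alternatives covered the use of 0, flank, minimum of positions, scale, offset, variance model, cluster distance, library means and each library left out.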

Additional observations from a re-analysis of the deposited data

How the results depend on the processing

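No Zfp gene was called by limma under any of the 20 alternatives of the gene fit, the replicate block included (0 genes and 0 positions called; unadjusted p under 0.05 in 3 genes with the block and in 5 without it). The mean difference of the Zfp genes turned negative when a 0 was counted as a level of 0 (-2.68 points over 82 Zfp genes, median -1.01). Over all genes it was then -0.906 points (median -0.111). With library means equalised it was -0.229 points (median -0.310), and -0.0738 points over all genes (median -0.317). With library means equalised, groups failed to overlap in 1 gene with higher (all genes 5.56%) and 7 with lower values (8.2%). With a 0 as a level, Zfp451 gave -6.89, Zfp808 -6.25, Zfp236 -8.05 and Zfp438 -2.27 points. Leaving out 1 library gave mean differences from 0.346 (without control replicate 1) to 1.11 points. The level gap of clustered over single genes was 4.25 points with a 0 as a level, 0.588 without flank, 0.083 with a flank of 2000 bases, -1.75 with at least 1 position, 0.011 with at least 10, 0.429 on unshared positions, -0.898 within 1000 bases of either end and 1.79 inside. Its change with DM-aKG was -1.71 points with a 0 as a level, -1.44 with at least 1 position, -2.38 near the ends and -0.358 with at least 10 positions; leaving out 1 library gave -1.03 to -0.488. Zfp positions called numbered 6 on log2 odds, and 0 to 1 with 1 library left out. Of 131 alternative differences of the 9 genes with groups apart, 115 moved by less than the spread between libraries, 12 by more, and 4 reversed. The causes were not tested.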
